A study of Homo sapiens with 9 samples.

Results

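*Alu* elements are primate-specific repeats that descend from the RNA of the signal recognition particle. They lie in great numbers in introns, and an element in antisense orientation carries a pyrimidine run and near-matches to splice sites, so that the splicing machinery can take part of it up as an exon. Such exons are usually included in a minority of a gene's transcripts, and most of them are alternative. The genes described here carry the exons of a table of the study that lists putatively coding *Alu* exons chosen for high or tissue-dependent splicing in human tissues. The members were all distinct Ensembl gene identifiers of that table that are rows of the deposited expression table, with ADARB1, the transfected gene, left out. Of its 50 identifiers, 1 had no row and 1 was ADARB1, which left 48 genes among 54562.

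RNA-seq was carried out on HEK293, a human embryonic kidney cell line, after transient transfection with the empty vector (EV), with pCMV6-ADARB1-short (Short) or with pCMV6-ADARB1-long (Long). ADARB1 encodes an adenosine deaminase that edits double-stranded RNA, and the Long product contains the residues of its own *Alu* exon, which the Short product lacks. RNA was collected 48 hours after transfection in 3 cell passages, which gave 3 libraries per group and 9 in all. All cells were grown in DMEM with 10% FBS, no group was left without transfection, and ADARB1 was driven from a plasmid in each treated library. The unit is FPKM, fragments per kilobase of gene relative to all fragments that were mapped, which is corrected for length and so allows levels of different genes to be set side by side. It sums all transcripts of a gene, so it measures neither the inclusion of the *Alu* exon nor the protein. In lysates of whole cultures, fewer cells of a kind and less RNA per cell cannot be told apart.

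ADARB1 was at 7.66 to 8.61 FPKM in EV, at 1889 to 4145 FPKM in Short and at 1695 to 3449 FPKM in Long, so that every library with an ADARB1 plasmid lay above every EV library. The FPKM of all genes summed to between 517170 and 589535 per library. The 6 matched HEK293 markers of the 8 listed (NEFM, INA, VIM, KRT8, KRT18 and PAX2) had EV means of 2.28 to 176 FPKM. Their summed level was 457 to 488 FPKM in EV, 486 to 553 FPKM in Short and 511 to 534 FPKM in Long. Of the 4 blood markers, 2 liver markers and 1 matched endothelial marker none had an EV mean of 1 FPKM, and the haemoglobin gene HBB was at 0 in all 9 libraries. COL1A1 was the 1 fibroblast marker of 4 above that level. The part of these differences in the results below was not tested.

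The genes have in common an exon of the table, which the study took from annotated internal exons that bring in no premature stop codon. No other exons are set beside them, so the traits below describe the listed exons only. The members carry 50 of the listed exons, of 48 to 259 nt with a median of 112 nt, and 32 of the 50 have a length that is a multiple of 3. On GRCh37, 46 of them match an annotated exon from end to end, and 33 of these are coding throughout, 9 are partly coding and 4 are noncoding in the annotation. Of the 48 exons with a known strand, 45 are followed by the donor GT, 3 (in FAM124B, B3GALNT2 and BRD2) by GC, and 47 are preceded by AG. The exception is the listed ANKRD26 interval, which is preceded by AT and is no annotated exon. The exon GC content had a median of 56.3% (45.6% to 62.3%). SLC3A2 carries neighbouring exons of the same length, 93 nt each.

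Of the 48 genes, 39 (81.2%) had an EV mean of at least 1 FPKM, 28 at least 10 FPKM and 4 at least 100 FPKM. The median EV level was 15.2 FPKM over all 48 and 18.8 FPKM over the 39, where the 13815 genes of the whole table that reached 1 FPKM (25.3%) had a median of 11.6 FPKM. Of 107 other genes with coding *Alu* exons in the study's further tables, 83 (77.6%) reached 1 FPKM, with a median of 20.9 FPKM. These levels are set side by side with no test, since the tables were drawn up from RNA-seq, ribosome profiling and peptides, which favour expressed genes. Between EV libraries the 39 members at 1 FPKM or more varied by a median coefficient of variation of 10.97% (2.67% to 25.3%), and all genes at 1 FPKM or more by 10.2%. Among the 16 members whose exon the study marked as having peptides in the PRIDE archive, 12 reached 1 FPKM with a median of 22.96 FPKM. Among the other 32 members, 27 reached it with a median of 16.3 FPKM. The plot of EV levels by role shows all 48 genes.

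**Figure D1:**
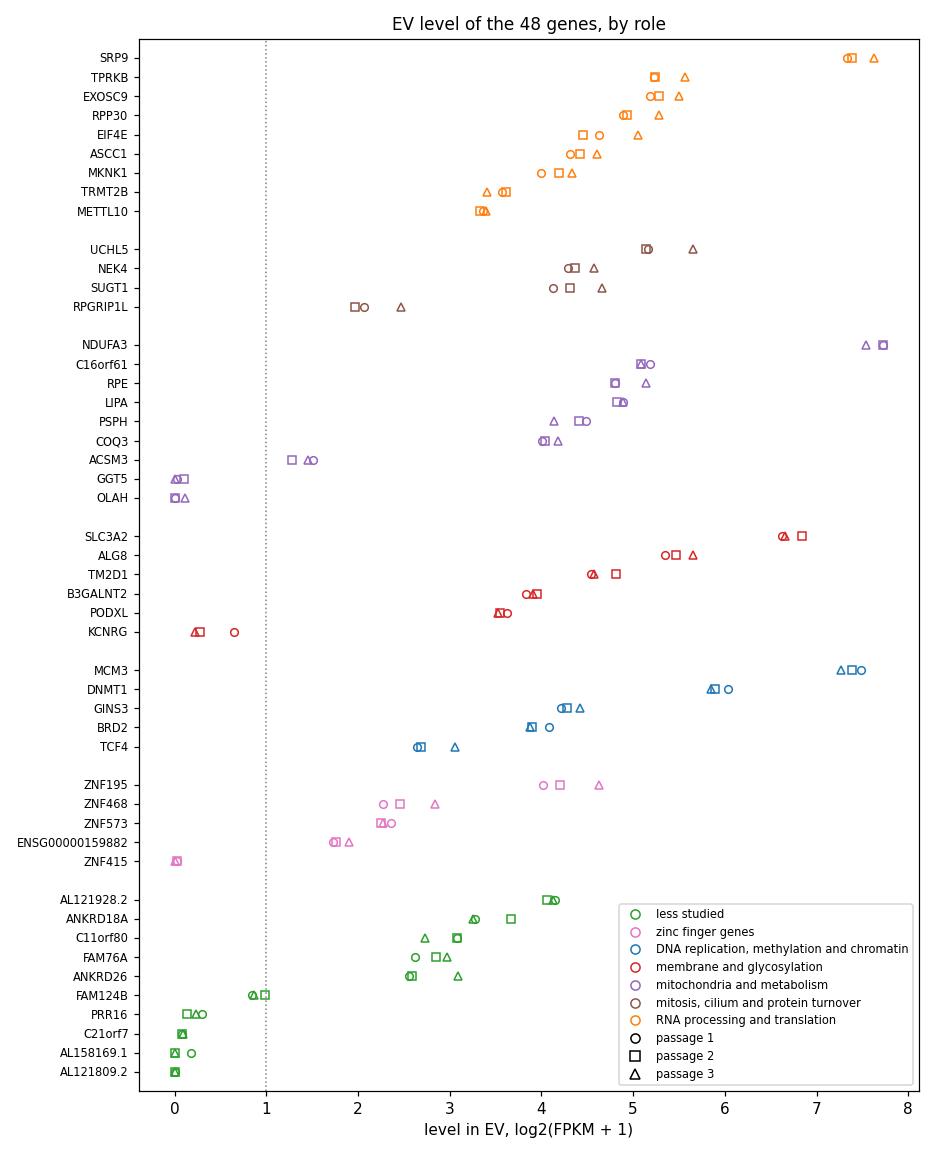
Level of each of the 48 genes in the 3 EV libraries on a log2(FPKM + 1) scale, grouped by role, with 1 marker shape per cell passage and a dotted line at 1 FPKM. NDUFA3, SRP9, MCM3 and SLC3A2 lie highest, with EV means above 100 FPKM, and 9 genes lie left of the line.

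Among the genes of RNA processing and translation all 9 were expressed, and SRP9 was highest. SRP9, which with SRP14 binds the *Alu* domain of the signal recognition particle RNA, was at 175 ± 19.6 FPKM in EV (mean ± SD, n = 3, as for all EV levels here). A processed pseudogene copy, SRP9P1, was listed at 219 FPKM in EV, so fragments may be divided between the 2 and the level of SRP9 is uncertain. TPRKB, a subunit of the KEOPS complex that modifies transfer RNA, had 39.8 ± 5.70 FPKM. EXOSC9, a core subunit of the RNA exosome, had 39.1 ± 4.59 FPKM. RPP30, a protein subunit of RNase P and RNase MRP, had 31.9 ± 5.08 FPKM. EIF4E, which binds the mRNA cap, had 25.6 ± 5.86 FPKM, and its processed pseudogene EIF4EP2 was listed at 43.9 FPKM, which makes the level of EIF4E uncertain in the same way. MKNK1, a kinase that phosphorylates eIF4E, had 17.1 ± 2.05 FPKM. ASCC1, of the activating signal cointegrator complex, had 20.8 ± 2.26 FPKM. TRMT2B, a mitochondrial RNA methyltransferase, had 10.6 ± 0.844 FPKM, and METTL10, a lysine methyltransferase of the elongation factor eEF1A, had 9.29 ± 0.248 FPKM.

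The genes of DNA replication, methylation and chromatin were also all expressed. MCM3, a subunit of the replicative helicase, had 166 ± 12.2 FPKM, and DNMT1, the maintenance DNA methyltransferase, 59.9 ± 4.02 FPKM. GINS3, which joins the same helicase, had 18.8 ± 1.48 FPKM. BRD2, a bromodomain reader of acetylated histones, had 14.5 ± 1.25 FPKM. TCF4, a helix-loop-helix transcription factor, had 6.005 ± 1.15 FPKM. MCM3 lay above DNMT1 in each EV library and DNMT1 above the other genes of the group, whereas GINS3 (17.6 to 20.5 FPKM) and BRD2 (13.7 to 15.96 FPKM) were closer.

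In mitosis, the cilium and protein turnover, UCHL5, a deubiquitinase of the proteasome and of the INO80 complex, had 39.4 ± 8.48 FPKM. NEK4, a kinase of the NIMA family, had 20.3 ± 2.23 FPKM and SUGT1, an HSP90 co-chaperone needed for kinetochore assembly, 19.9 ± 4.08 FPKM, and their EV ranges overlapped. RPGRIP1L, a protein of the ciliary transition zone, had 3.54 ± 0.869 FPKM, below the other genes of the group in each library. Among membrane and glycosylation genes, SLC3A2, the heavy chain of the CD98 amino acid transporters, had 104 ± 8.79 FPKM. ALG8, a glucosyltransferase of the N-glycan precursor, had 43.97 ± 4.79 FPKM. TM2D1, a membrane protein that binds amyloid-beta, had 24.1 ± 2.62 FPKM. B3GALNT2, which adds N-acetylgalactosamine to dystroglycan, had 13.9 ± 0.590 FPKM and PODXL, the sialomucin podocalyxin, 10.8 ± 0.423 FPKM. KCNRG, a regulator of potassium channels, was at 0.315 ± 0.221 FPKM. Its span overlaps TRIM13 on the same strand, so its fragments cannot be assigned with certainty.

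Among genes of mitochondria and metabolism, NDUFA3, a subunit of respiratory complex I, was the highest of all members at 202 ± 14.9 FPKM. C16orf61, now CMC2, which acts in the assembly of cytochrome c oxidase, had 33.7 ± 1.38 FPKM. RPE, the ribulose-phosphate epimerase of the pentose phosphate pathway, had 29.3 ± 4.21 FPKM. LIPA, the lysosomal acid lipase, had 28.2 ± 0.776 FPKM. PSPH, the phosphatase that completes serine synthesis, had 19.5 ± 2.51 FPKM and COQ3, a methyltransferase of coenzyme Q synthesis, 15.9 ± 1.09 FPKM. ACSM3, a medium-chain acyl-CoA synthetase, was near the limit at 1.67 ± 0.217 FPKM. GGT5, a gamma-glutamyltransferase, was at 0 in 6 of 9 libraries and OLAH, a thioesterase of fatty acid synthesis, at 0 in 7 of 9. Neither exceeded 0.167 FPKM in any library.

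The 5 C2H2 zinc finger genes had a median EV level of 3.91 FPKM. ZNF195 had 18.8 ± 4.43 FPKM, ZNF468 4.82 ± 1.19 FPKM and ZNF573 3.91 ± 0.185 FPKM, and ZNF415 had no library above 0.0191 FPKM. The identifier ENSG00000159882 had 2.48 ± 0.229 FPKM. The annotation names this identifier ZNF230, while the study's table names it ZNF283 and gives an exon that lies in ZNF283, which had 5.46 ± 0.417 FPKM. Among the less studied genes AL121928.2 had 16.3 ± 0.550 FPKM, ANKRD18A 9.65 ± 1.77 FPKM, C11orf80 6.84 ± 1.04 FPKM, FAM76A 6.05 ± 0.857 FPKM and ANKRD26, an ankyrin repeat protein of the centriole, 5.81 ± 1.47 FPKM. FAM124B was just below the limit at 0.866 ± 0.103 FPKM, and PRR16 was at 0.167 ± 0.0701 FPKM. C21orf7, now MAP3K7CL, had no library above 0.0660 FPKM, and AL158169.1 was at 0 in 7 of 9 libraries. AL121809.2 was listed at 0 in all 9, and the exon listed for it lies in FKBP3 on another chromosome, which had 108 ± 9.73 FPKM. In all, 4 exons lie outside the gene of their identifier or have an identifier that the annotation does not hold (ENSG00000159882, AL121809.2, AL158169.1 and AL121928.2), and for these the level is that of the identifier. The spans of 35 of the 46 annotated members overlap another annotated gene, 20 on the same strand and 29 on the opposite strand, and values of such genes can share fragments.

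Changes after transfection were tested with limma on log2(FPKM + 1) with the passage as a block. The passage of a library was taken from the replicate number in its title. The fit covered the 13801 genes whose mean across the 9 libraries reached 1 FPKM, of which 39 are members. All p-values were adjusted over these 13801 genes (Benjamini-Hochberg), and a gene passed at an adjusted p below 0.05. They rest on the spread left after the passage block, which takes out differences in level between passages, and they cover 1 cell line. A difference on this scale understates the change of genes with low FPKM. Both treated groups are compared with the same EV libraries, so the 2 comparisons are not independent.

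In Long against EV, 6 of 39 members (15.4%) passed the test, 2 higher and 4 lower, where 8.32% of all genes tested passed, 1.99% higher and 6.33% lower. At an unadjusted p below 0.05 there were 13 members (33.3%), against 24.4% of all genes. SLC3A2 and PSPH rose, and ANKRD26, RPGRIP1L, UCHL5 and RPE fell. The median log2 difference over the 39 members was 0.00097 and that over all genes 0.039, with 20 members above 0 and 19 below. The number of members called depended on the design: it was 0 without the passage block (2 of all genes passed), 0 without passage 1 (2 of all genes) or without passage 2 (100 of all genes), and 4 without passage 3 (1031 of all genes). A correction for transcript GC content left 2, SLC3A2 and ANKRD26 (254 of all genes). With FPKM rescaled to the same sum the split was 1 higher and 6 lower (57 and 1222 of all genes).

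SLC3A2 (chr11:62623476-62656352 (plus strand)) had 97.7, 114 and 99.7 FPKM in EV, 112, 127 and 109.9 FPKM in Short and 120.2, 146 and 117 FPKM in Long, in the order of passages 1, 2 and 3. All 3 Long libraries lay above all 3 EV libraries in FPKM as deposited, and Short overlapped both. Divided by the FPKM sum of each library, EV passage 2 lay above Long passages 1 and 3. How many of all genes separate in this way was not counted. The fit gave a log2 difference of 0.29 (standard error 0.047, adjusted p = 0.00953 in limma), and the differences within passages were 0.30, 0.35 and 0.22. In Short the log2 difference was 0.16 (adjusted p = 0.115). SLC3A2 forms transporters with light chains, of which 4 of 5 listed were tested, and 1 rose and 1 fell in Long. SLC7A5, its main partner for large neutral amino acids, rose (0.26, adjusted p = 0.0268), and SLC7A11, the cystine carrier, fell (-0.49, adjusted p = 0.023).

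PSPH (chr7:56078744-56119297 (minus strand)) had 21.4, 20.3 and 16.6 FPKM in EV, 25.99, 22.1 and 19.6 FPKM in Short and 25.8, 25.9 and 19.6 FPKM in Long. The groups overlapped because passage 3 was lowest in each of them, but Long exceeded EV in every passage, by 0.26, 0.34 and 0.22 on the log2 scale. The fitted log2 difference was 0.27 (standard error 0.066, adjusted p = 0.0307), and in Short it was 0.20 (adjusted p = 0.128). The earlier enzymes of serine synthesis and the enzymes that convert serine to glycine were listed beside it, and 0 of 4 passed in limma, 1 of them at an unadjusted p below 0.05. PHGDH, the first enzyme, had a Long difference of 0.12 (adjusted p = 0.119), and PSAT1 had a Long difference of 0.083 (adjusted p = 0.346). The listed exon of PSPH is noncoding in the annotation.

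ANKRD26 (chr10:27262722-27389423 (minus strand)) had 4.89, 5.03 and 7.504 FPKM in EV, 2.41, 3.20 and 6.54 FPKM in Short and 1.89, 1.78 and 5.42 FPKM in Long. Passage 3 was high in all groups, and its Long library lay above the EV libraries of the other passages, so the groups overlapped. Within passages the Long differences were -1.03, -1.12 and -0.41, and the fit gave a log2 difference of -0.85 (standard error 0.14, adjusted p = 0.00963), the furthest of the members from 0. The Short difference was -0.49 (adjusted p = 0.11), with -0.79, -0.52 and -0.17 within passages. Its listed interval matches no annotated exon, and its named pseudogene copies were at 0.138 FPKM or less in EV.

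RPGRIP1L (chr16:53632065-53737850 (minus strand)) had 3.19, 2.90 and 4.53 FPKM in EV, 1.92, 2.15 and 4.11 FPKM in Short and 1.54, 1.63 and 3.54 FPKM in Long. As for ANKRD26, passage 3 was highest in every group and the groups overlapped, while Long was below EV in each passage, by -0.72, -0.57 and -0.29. The fitted log2 difference was -0.53 (standard error 0.11, adjusted p = 0.0168) in Long and -0.32 (adjusted p = 0.138) in Short. It overlaps FTO on the opposite strand, which had 31.1 FPKM in EV and a Long difference of 0.14 (adjusted p = 0.222).

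UCHL5 (chr1:192981380-193029210 (minus strand)) had 34.8, 34.2 and 49.2 FPKM in EV, 29.2, 31.05 and 47.1 FPKM in Short and 21.9, 26.04 and 40.8 FPKM in Long. Long was below EV in each passage, by -0.65, -0.38 and -0.26, although Long passage 3 exceeded the EV libraries of passages 1 and 2. The fitted log2 difference was -0.43 (standard error 0.072, adjusted p = 0.00978), against -0.15 (adjusted p = 0.259) in Short. RO60, which overlaps it on the opposite strand, also fell (-0.68, adjusted p = 0.0159), and whether strand was used in counting is not given in the sources used here, so the 2 genes cannot be told apart with certainty. Of the partners of UCHL5 in the proteasome and in INO80, 0 of 4 passed in limma (1 at an unadjusted p below 0.05). ADRM1, its receptor on the proteasome, had a Long difference of 0.17 (adjusted p = 0.0688), and NFRKB, its partner in INO80, a Long difference of 0.14 (adjusted p = 0.24).

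RPE (chr2:210867289-210886984 (plus strand)) had 26.96, 26.9 and 34.2 FPKM in EV, 24.8, 19.9 and 33.7 FPKM in Short and 20.4, 20.9 and 30.2 FPKM in Long. Long was below EV by -0.38, -0.34 and -0.17 within passages, the groups overlapped, and the fitted log2 difference of -0.30 (standard error 0.081, adjusted p = 0.0488) was just inside the threshold. In Short it was -0.18 (adjusted p = 0.221). The named copies of RPE, including RPEL1, were at 0.183 FPKM or less in EV. KANSL1L, on the opposite strand, had 3.93 FPKM in EV and a Long difference of -0.26 (adjusted p = 0.171). The plot of these 6 genes by library gives 1 line per passage.

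In Short against EV, 0 of 39 members passed limma's test, where 0.0362% of all genes did (5 genes), and 9 members (23.1%) had an unadjusted p below 0.05, against 22.0% of all genes. The median log2 difference was 0.022 over the members and 0.041 over all genes, with a range of -0.49 to 0.20. The lowest unadjusted p-values were those of ANKRD26 and SLC3A2. In Long against Short, 0 of 39 members passed, where 0.00725% of all genes did (1 gene), and 4 members (10.3%) had an unadjusted p below 0.05, against 7.54%. The median was -0.021 over the members and -0.019 over all genes. UCHL5 had the lowest unadjusted p of this comparison, with a log2 difference of -0.28 (standard error 0.072, adjusted p = 0.547). None of the 6 genes that passed in Long against EV is therefore shown to differ between Long and Short. The plot of differences by passage gives the 39 genes in both treated groups.

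**Figure D2:**
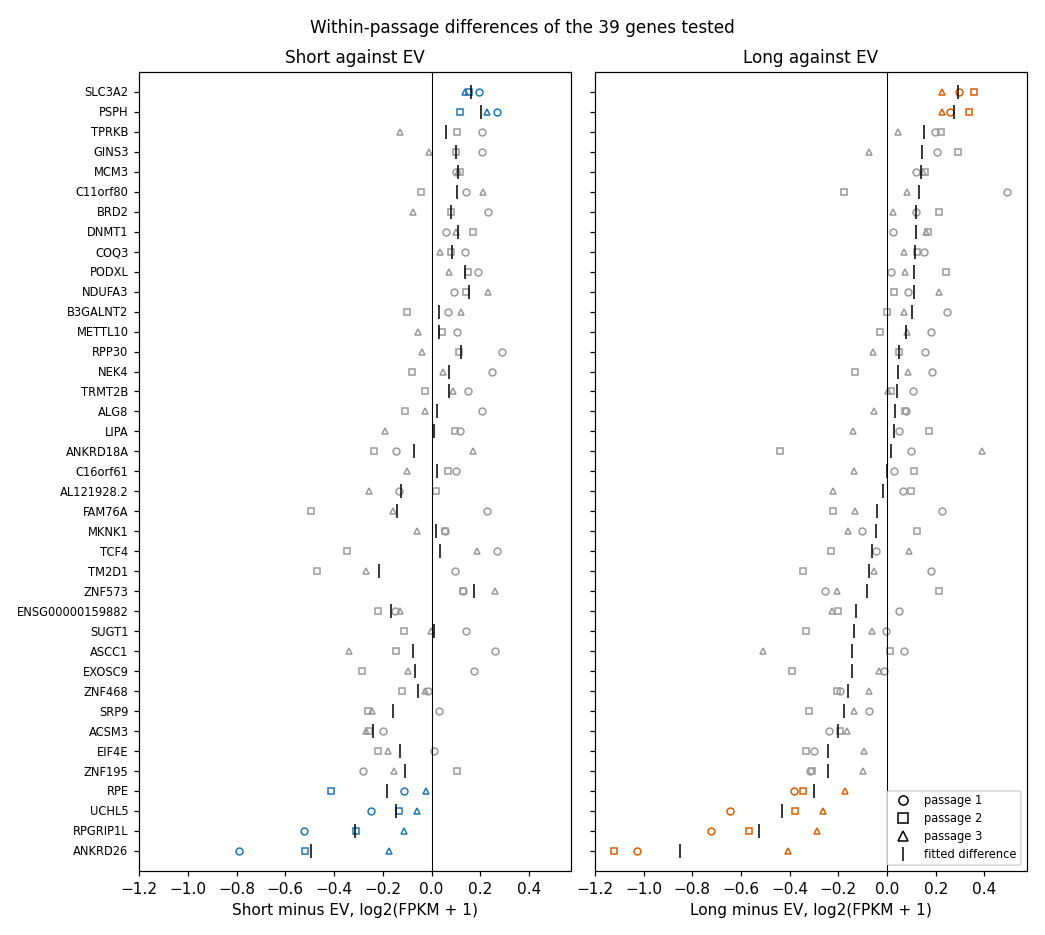
Difference of Short (left) and Long (right) from EV within each passage for the 39 genes tested, on the log2(FPKM + 1) scale, ordered by the fitted Long difference, with the 6 genes that passed in Long in colour. In Long, all 3 passages of each of the 6 lie on one side of 0. The same holds for many genes that did not pass, among them MCM3, DNMT1, TPRKB, ZNF195 and EIF4E, and further genes have passages on both sides.

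The transcript GC content of the members moved with these differences. The 4 genes that fell have 35.2% to 38.4% GC in their longest annotated transcript, and PSPH and SLC3A2 have 49.8% and 53.8%. In Long against EV, 13 of 15 members under 40% GC lay below 0 with a median of -0.16, and 7 of 7 members at 50% GC or more lay above 0 with a median of 0.12. All genes tested had medians of -0.19 (2358 genes) and 0.089 (5773 genes) in the same classes. In the lowest class 28.9% of all genes were called lower. In Short against EV the same held, with member medians of -0.13 and 0.11 and medians of -0.12 and 0.11 over all genes. The members tested had a median GC of 41.3% and all genes tested 47.8%.

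After a correction of each library for transcript GC content, with the passage block kept, the Long difference of SLC3A2 was 0.21 (adjusted p = 0.049) and that of ANKRD26 -0.58 (adjusted p = 0.049). The corrected values were -0.32 (adjusted p = 0.113) for RPGRIP1L, 0.21 (adjusted p = 0.0909) for PSPH, -0.10 (adjusted p = 0.427) for UCHL5 and -0.010 (adjusted p = 0.955) for RPE. The differences of UCHL5 and RPE were thus the most reduced, and those of SLC3A2 and ANKRD26 kept their side of the threshold. AL121928.2, which has no annotated transcript, kept its values. The part of GC content in the uncorrected differences was not tested beyond this.

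**Figure D3:**
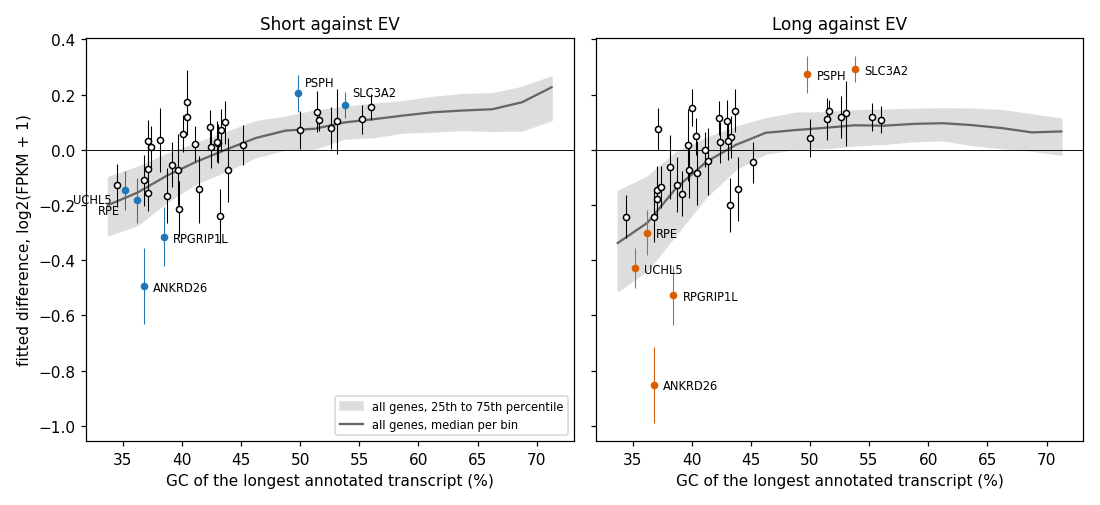
Fitted log2 difference from EV of the 38 members tested with an annotated transcript (points, with standard errors) against the GC content of the longest annotated transcript, for Short (left) and Long (right), with the median and the middle 50% of all genes tested in bins of 2.5 percentage points. ANKRD26 and RPGRIP1L lie below the band of all genes of like GC content in both panels, and UCHL5 and RPE within it or near its edge.

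SUGT1, DNMT1, MCM3, NEK4, ALG8, SRP9 and METTL10 were described whatever their p, and none of the 7 passed the test in any comparison in this fit. SUGT1 had 16.4, 18.8 and 24.4 FPKM in EV, 18.2, 17.3 and 24.4 FPKM in Short and 16.4, 14.7 and 23.3 FPKM in Long, with overlapping groups. Its log2 differences were 0.0095 in Short (adjusted p = 0.956) and -0.13 in Long (adjusted p = 0.302). Of 4 listed partners of SUGT1, 1 rose and 1 fell in Long: HSP90AB1 rose (0.19, adjusted p = 0.0274) and HSP90AA1, the inducible form of HSP90, fell (-0.52, adjusted p = 0.0125). DNMT1 had 64.4, 58.4 and 56.8 FPKM in EV, 67.2, 65.7 and 61.04 FPKM in Short and 65.6, 65.8 and 63.7 FPKM in Long, and its differences were 0.11 in Short (adjusted p = 0.245) and 0.12 in Long (adjusted p = 0.193). Long was above EV in each passage for DNMT1, by 0.025, 0.17 and 0.16. Of its listed partners in DNA methylation 3 of 4 were matched and tested, and 0 of 3 passed in limma, with 1 at an unadjusted p below 0.05. PCNA, the replication clamp, had a Long difference of -0.031 (adjusted p = 0.783).

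MCM3 had 178, 166 and 154 FPKM in EV, 191, 180.1 and 165 FPKM in Short and 193, 185 and 170.3 FPKM in Long, so that Long was above EV in every passage while the groups overlapped. Its differences were 0.11 in Short (adjusted p = 0.166) and 0.14 in Long (adjusted p = 0.0601). The other subunits of the helicase and of GINS were tested as a list of 8, of which 2 rose in Long and none fell, with a median of 0.15. The 2 were MCM2 (0.22, adjusted p = 0.0299) and MCM7 (0.16, adjusted p = 0.0439), and in the same list 0 of 8 passed in Short, 3 at an unadjusted p below 0.05. GINS3 had differences of 0.10 in Short (adjusted p = 0.479) and 0.14 in Long (adjusted p = 0.297). NEK4 had 18.5, 19.6 and 22.8 FPKM in EV, 22.2, 18.5 and 23.6 FPKM in Short and 21.2, 17.8 and 24.3 FPKM in Long, with groups that overlapped throughout, and differences of 0.073 in Short (adjusted p = 0.599) and 0.046 in Long (adjusted p = 0.758). ALG8 had 39.7, 43.1 and 49.1 FPKM in EV, 45.997, 39.9 and 48.2 FPKM in Short and 41.9, 45.4 and 47.3 FPKM in Long, and its differences were 0.024 in Short (adjusted p = 0.872) and 0.033 in Long (adjusted p = 0.823). Of the 12 other genes of the N-glycan precursor 0 passed in limma in Long, with 2 at an unadjusted p below 0.05. ALG3 had a Long difference of 0.20 (adjusted p = 0.0571) and ALG10B a Long difference of -0.35 (adjusted p = 0.145). METTL10 had 9.29, 9.04 and 9.53 FPKM in EV, 10.1, 9.33 and 9.15 FPKM in Short and 10.7, 8.83 and 10.1 FPKM in Long, and its differences were 0.031 in Short (adjusted p = 0.842) and 0.076 in Long (adjusted p = 0.58).

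SRP9 had 161, 166 and 197 FPKM in EV, 164, 139 and 166 FPKM in Short and 152, 133 and 179 FPKM in Long, with EV and Long overlapping. Its differences were -0.16 in Short (adjusted p = 0.191) and -0.18 in Long (adjusted p = 0.12). Of the 7 other proteins of the signal recognition particle and its receptor, 1 fell in Long and none rose. This was SRP72 (-0.49, adjusted p = 0.00965), while SRP14, which forms a heterodimer with SRP9, had a Long difference of 0.13 (adjusted p = 0.261). For the RNA exosome, of which EXOSC9 is a subunit, 1 of 10 other genes fell in Long and none rose. This was the nuclease DIS3 (-0.72, adjusted p = 0.0102), and EXOSC9 itself had -0.069 in Short (adjusted p = 0.673) and -0.15 in Long (adjusted p = 0.337). The list had a median of 0.10, with 8 of 10 above 0. EXOSC8, another subunit of the ring, had a Long difference of -0.13 (adjusted p = 0.191). Among genes of the cap-binding complex, its inhibitors and kinases, 2 of 7 rose in Long and none fell, EIF4G1 (0.21, adjusted p = 0.0244) and EIF4EBP1 (0.17, adjusted p = 0.0461). EIF4E had -0.13 in Short (adjusted p = 0.354) and -0.24 in Long (adjusted p = 0.0885). With the GC content correction EIF4E turned to 0.078 in Short and 0.11 in Long, and 0 of these 7 genes passed in limma in Long. EIF4E had 23.7, 20.9 and 32.2 FPKM in EV, 23.9, 17.8 and 28.3 FPKM in Short and 19.1, 16.4 and 30.1 FPKM in Long. For RNase P and MRP 0 of 8 tested genes passed in limma, 1 at an unadjusted p below 0.05, and RPP30 had 0.12 in Short (adjusted p = 0.319) and 0.049 in Long (adjusted p = 0.706). For KEOPS 0 of 4 passed, 1 at an unadjusted p below 0.05, and TPRKB had 0.059 in Short (adjusted p = 0.636) and 0.15 in Long (adjusted p = 0.196). Over all 12 lists 6 of 75 partner genes tested rose and 4 fell in Long (13.3%, against 8.32% of all genes), with a median of 0.10 (0.039 over all genes), and the counts of the single lists are read against the same 8.32%. In Short 0 passed in limma, and 23 (30.7%) had an unadjusted p below 0.05, against 22.0% of all genes. The partners that rose depended on the settings: with FPKM rescaled to the same sum 0 rose and 5 fell, with median ratio scaling 3 rose (EIF4G1, MCM2 and SLC7A5) and 5 fell, and with the GC content correction 1 rose, GINS1, which is not among the 6, and 3 fell. DIS3, HSP90AA1 and SRP72 were called lower under each of these. Without the passage block 0 of 75 passed in limma.

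The other members with the furthest differences that went the same way in all 3 passages did not pass the test either. In Long these were, in the fit as described, ZNF195 (-0.24, adjusted p = 0.139), EIF4E, ACSM3 (-0.20, adjusted p = 0.24), ZNF468 (-0.16, adjusted p = 0.264) and TPRKB. In Short these were ACSM3 (-0.24, adjusted p = 0.188), ZNF573 (0.17, adjusted p = 0.396), ENSG00000159882 (-0.17, adjusted p = 0.347), NDUFA3 (0.16, adjusted p = 0.123) and PODXL (0.14, adjusted p = 0.306). In Long against Short they were TM2D1 (0.14, adjusted p = 0.837), AL121928.2 (0.11, adjusted p = 0.853), ZNF468 (-0.11, adjusted p = 0.863), RPP30 (-0.071, adjusted p = 0.915) and NDUFA3 (-0.046, adjusted p = 0.928). ACSM3 had 1.85, 1.42 and 1.73 FPKM in EV, 1.48, 1.03 and 1.27 FPKM in Short and 1.41, 1.12 and 1.43 FPKM in Long, and NDUFA3 had 211, 210.5 and 185 FPKM in EV, 224, 232 and 217 FPKM in Short and 223, 215 and 214 FPKM in Long. For NDUFA3 all Short and all Long libraries lay above all EV libraries in FPKM as deposited. Divided by the FPKM sum of each library, the groups overlapped. Its Short difference was 0.071 with FPKM rescaled to the same sum (adjusted p = 0.471 in limma). With the GC content correction it was 0.054 in Short and 0.028 in Long. How many of all genes separate in this way was not counted.

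By role, the Long differences are given with the values after the GC content correction in parentheses, beside all genes tested, of which 60.7% lay above 0 with a median of 0.039 (56.7% and 0.018). The genes of DNA replication, methylation and chromatin had a median Long difference of 0.12 with 4 of 5 tested genes above 0 (0.068 and 5 after the GC content correction). The genes of membranes and glycosylation had a median Long difference of 0.10 with 4 of 5 tested genes above 0 (0.072 and 5 after the GC content correction). Those of mitochondria and metabolism had a median Long difference of 0.027 with 5 of 7 tested genes above 0 (0.073 and 5 after the GC content correction). Over all 39 members the median was 0.00097 with 20 above 0 (0.063 and 30 after the GC content correction). In 3 groups the median turned from below to above 0 with the correction. The genes of RNA processing and translation had a median Long difference of -0.046 with 4 of 9 tested genes above 0 (0.11 and 6 after the GC content correction), the zinc finger genes a median Long difference of -0.14 with 0 of 4 tested genes above 0 (0.031 and 4 after the GC content correction), and the less studied genes a median Long difference of -0.019 with 2 of 5 tested genes above 0 (0.039 and 3 after the GC content correction). The group of mitosis, cilium and protein turnover had a median Long difference of -0.28 with 1 of 4 tested genes above 0 (-0.018 and 2 after the GC content correction).

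Members with PRIDE peptides had 1 of 12 tested genes called in Long (SLC3A2, 8.33%), and the other members 5 of 27 (18.5%), against 8.32% of all genes. At an unadjusted p below 0.05 the order was the other way, with 6 of 12 and 7 of 27 (25.9%), against 24.4% of all genes. The difference between the 2 kinds of members was not tested. Of the 107 other genes with coding *Alu* exons, 83 were tested, 2 rose and 6 fell in Long (9.64%, against 8.32% of all genes), with a median of 0.040 (0.039 over all genes). In Short 0 of the 83 passed in limma, and 22 (26.5%) had an unadjusted p below 0.05, against 22.0% of all genes.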

How the data were processed

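The 9 libraries were made with a strand-specific protocol from poly(A) RNA and sequenced from both ends. According to the submitters' processing notes the authors used TopHat (version 1.4.1) and Cufflinks on hg19, and they deposited FPKM for each library separately, per Ensembl gene. The Ensembl release and the use of strand in counting are not given in the sources used here. No counts are given, so the depth is unknown and no counting intervals were computed. Steps among values below 0.05 FPKM put the relative depth at 0.993 to 1.21 times that of the first EV library, from ratios that 22.1% to 45.9% of such genes shared within 0.02 (log2).

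Exon and gene positions came from GRCh37, of which hg19 is the same build, and GENCODE v44lift37, which held 47578 of the 54562 identifiers (87.2%). The listed exon starts count from 0 and were moved by 1. GC content and length are those of the longest annotated transcript. The log2(FPKM + 1) values entered limma (version 3.58.1, R 4.3.3; lmFit, eBayes with an intensity trend) on genes whose mean reached 1 FPKM, with the 3 groups and the passage in the fit, a design that was tested on simulated data first. The replicate numbers of the sample titles were taken to stand for cell passages. The methods say that the transfections were replicated in 3 passages, and the titles do not say that equal numbers mean the same passage. Same-numbered libraries deviated from their group means together, with correlations across genes of 0.33 to 0.81 over 9 pairs. Pairs with different numbers had -0.63 to -0.37 where 1 was of passage 3 (12 pairs) and 0.18 to 0.37 between passages 1 and 2 (6 pairs), which overlaps the range of the same-numbered pairs.

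The members follow from the study's exon table. The lists and the rule for naming genes were written with earlier results of these data known. Every member is named with its EV level. Full statistics are given for members that passed and for 7 others whatever their p. For each comparison the 5 further members with the largest differences of the same sign in all passages are named, and at most 2 partner genes of each list. Older symbols of partners were matched through RefSeq synonyms, and UHRF1, PECAM1, NEFL and LHX1 were not matched. The alternatives were another pseudocount (0.1), other scalings, filters, blocks and samples, and loess corrections (span 0.3) for GC content and length. The columns of the study's own exon scores were not used. Sequences of the exons are not reported here.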

Additional observations from a re-analysis of the deposited data

How the results depend on the processing

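As reported, 6 members and 1148 of all genes were called in Long against EV. Without the passage block (no replicate block) 0 members were called (2 of all genes), and without a filter on low values 0 (1 of 27356 genes). The GC content correction with the block gave 2 (254 of all genes), and leaving out 1 passage at a time gave 0 to 4 (2 to 1031). The other settings gave 4 to 9 (646 to 1399 of all genes). In Short against EV and in Long against Short every setting gave 0 members (1 to 59 and 0 to 9 of all genes). Of the 6 genes, SLC3A2 stayed past the threshold in 9 of 13 settings, ANKRD26 in 8 of 12, UCHL5 in 8 of 13, RPGRIP1L in 7 of 12, RPE in 5 of 13 and PSPH in 4 of 13, and none changed sign. Their adjusted p reached 0.637 to 0.955 in the least favourable setting, which for RPE was the GC content correction. With FPKM rescaled to the same sum, 4.46% of all calls in Long were higher and with median ratio scaling 9.01%, against 23.95% as reported and 44.5% with the GC content correction.

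The median Long difference of the members was -0.073 with FPKM rescaled to the same sum, and that over all genes was -0.028. The median EV level was 15.8 FPKM with that scaling, 15.5 FPKM with median ratio scaling, 15.5 FPKM over all 9 libraries, 16.5 FPKM without the genes whose exon lies elsewhere, and 15.1 to 15.4 FPKM without 1 passage.

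Signs turned only for differences that had not passed. With the GC content correction, Long against EV was 0.11 for SUGT1, 0.081 for SRP9, 0.027 for ZNF195, 0.11 for EIF4E and 0.013 for ZNF468, and Short against EV was 0.046 for UCHL5. With the length correction SUGT1 was 0.030 in Long and ALG8 -0.020 in Short. With FPKM rescaled to the same sum, Short against EV was -0.071 for SUGT1, -0.0079 for NEK4, -0.059 for ALG8 and -0.046 for METTL10, and Long against EV was -0.026 for NEK4 and -0.041 for ALG8. With median ratio scaling Short against EV was -0.045 for SUGT1, -0.032 for ALG8 and -0.021 for METTL10, and Long was -0.012 for ALG8. Without 1 passage, Short against EV was -0.056 to 0.070 for SUGT1, -0.016 to 0.15 for NEK4, -0.069 to 0.090 for ALG8 and -0.0062 to 0.073 for METTL10, and Long against EV was -0.022 to 0.14 for NEK4. These signs are for the genes described in detail. Over all 39 members the GC content correction turned the sign of 12 in Long and 8 in Short, none of which had passed, among them EXOSC9 in both and EIF4E in both. Other settings called members in Long that did not pass as reported: SRP9 with FPKM rescaled to the same sum (adjusted p = 0.0231) and with the length correction (adjusted p = 0.0463), DNMT1 with the length correction (adjusted p = 0.0494), MCM3 with a mean of at least 5 FPKM (adjusted p = 0.0495), and EIF4E with rescaled FPKM, median ratio scaling and the length correction (adjusted p = 0.0221, 0.0289 and 0.0373). The cause of these changes was not tested. Fits that leave out a passage rest on 2 passages and have fewer degrees of freedom, and the depth behind the low values is unknown.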
